A study of Saccharomyces cerevisiae with 6 samples.

Results

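The pericentromeric zone of budding yeast (Saccharomyces cerevisiae) was described here as all 50 bp bins that lie within 15 kb of the centromere of a nuclear chromosome. It holds 9600 of the 241434 bins counted in each sample, or 3.98%, in 16 stretches of 30 kb with 600 bins each. The bins were chosen by position only, on the R64 build, and no count entered the choice. The zone holds the midpoints of 250 protein-coding genes, 19 tRNA genes and 3 snoRNA genes.

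A yeast centromere is a short DNA element that carries a specialised nucleosome with the histone H3 variant Cse4 and is the seat of the kinetochore, the protein complex that attaches the chromosome to a spindle microtubule. The sequence on both sides is enriched for cohesin and condensin in dividing cells, and replication origins close to centromeres are known to fire early in S phase. Centromeres of all chromosomes cluster near the spindle pole body for most of the cell cycle. Rpd3 is a histone deacetylase of the large and small Rpd3 complexes, the large one acting at promoters and the small one along transcribed genes.

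DNA bound by a FLAG-tagged protein was sequenced after chromatin immunoprecipitation with the anti-FLAG M2 antibody in 3 rpd3Δ samples (strain YHy17) and 3 WT samples (strain OAy1102). Both strains were grown in YEPD at 23 °C, arrested in G1 by α-factor, a mating pheromone, and cross-linked with formaldehyde. The title of the series is about Rpd3, Fkh1 (a forkhead transcription factor), replication origins of single copy and the ribosomal DNA array (rDNA), but the labels do not say which protein carries the tag. The gene for the pheromone-degrading protease Bar1 had 0 counts in all 6 samples, so both strains lack that sequence. No input library was used, so a level below is the amount of precipitated DNA, not an enrichment over unprecipitated chromatin. Each genotype is 1 strain. Nothing in the labels says that replicates were separate cultures, and the p-values below therefore speak only of the variation among the 6 samples at hand, part of which may be technical.

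The summed counts were 6250775, 6785491 and 4888453 in the rpd3Δ samples and 4676274, 5907739 and 3987250 in the WT samples. The zone received 58287 to 81240 of these in rpd3Δ and 64062 to 122388 in WT, with a median of 5 to 7 counts per bin in rpd3Δ and 6 to 10 in WT. The rDNA took 56.0% to 63.99% of the counts in rpd3Δ and 37.1% to 49.7% in WT, and was left out of every denominator below. Whether this shift bears on the differences below was not tested. Over RPD3 itself, the signal relative to the rest of the chromosomes was 0.102 ± 0.0218 in rpd3Δ and 0.895 ± 0.0980 in WT (SD, n = 3 each), low in the samples labelled as deleted. In the zone, 25 bins had 0 counts in every sample. All of these lie on chromosome VIII between 93101 and 94950, over YHL008C (92627 to 94510) and the sequence next to it, so that stretch lowers the level of that chromosome's zone in both genotypes.

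The first question was whether the zone carries more or less of the precipitated DNA than the chromosome arms. Each sample's mean count per bin in the zone was divided by its mean over the rest of the chromosomes, which is the sequence over 15 kb from a centromere and over 30 kb from a chromosome end, without chromosome XII. This relative level was 0.776, 0.799 and 0.815 in the rpd3Δ samples and 0.848, 0.867 and 0.835 in the WT samples. The zone was below the rest in all 6 samples (mean log2 ratio −0.28, exact sign-flip permutation test, two-sided p = 0.03125, the smallest p that 6 samples allow). The 3 rpd3Δ samples all lay below the 3 WT samples. The mean relative level was 0.797 ± 0.0199 in rpd3Δ and 0.850 ± 0.0161 in WT (SD, n = 3 each), a log2 difference of −0.09, and the exact permutation test gave a two-sided p of 0.1, the smallest that 3 against 3 samples allow. With medians of bins in place of means, the groups overlapped, at 0.778, 0.875 and 0.714 in rpd3Δ and 0.778, 0.833 and 0.857 in WT (exact permutation test, p = 0.7).

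Neither the low level nor the difference between genotypes ended at 15 kb. The neighbouring sequence 15 to 45 kb from the centromeres had a relative level of 0.774 ± 0.0202 in rpd3Δ and 0.839 ± 0.0112 in WT (SD, n = 3 each), a log2 difference of −0.12. The zone divided by this neighbouring sequence gave 1.034, 1.022 and 1.034 in rpd3Δ and 1.007, 1.021 and 1.010 in WT. Against its neighbours the zone was thus slightly higher, not lower, in all 6 samples, and the 3 rpd3Δ values were above the 3 WT values by a log2 difference of 0.02 (exact permutation test, p = 0.1). Sequence 45 to 100 kb away was nearer to the rest, at 0.871 ± 0.00924 in rpd3Δ and 0.956 ± 0.0191 in WT, and there too the 3 rpd3Δ samples lay below.

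**Figure D1:**
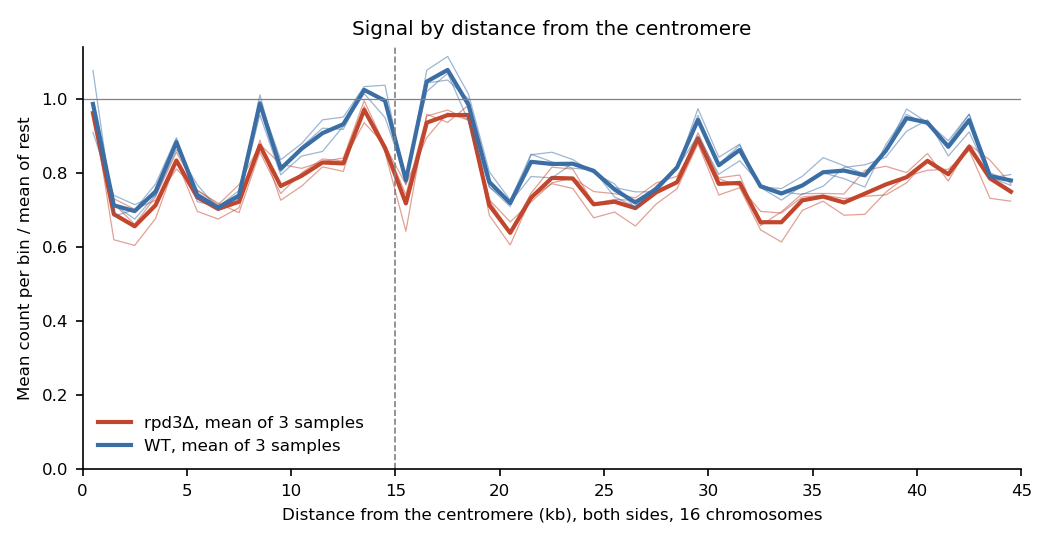
Mean count per bin divided by the mean of the rest of the chromosomes, against the distance from the centromere in kb, in 1 kb steps over both arms of 16 chromosomes; thick lines are means of the 3 rpd3Δ and the 3 WT samples, thin lines single samples, and the dashed line marks 15 kb. The signal has a local rise in the innermost 1 kb (0.963 in rpd3Δ and 0.988 in WT) and falls to under 0.75 within 3 kb. At 13 to 14 kb it is slightly higher than the mean of that innermost 1 kb (0.972 in rpd3Δ and 1.03 in WT). The rpd3Δ line runs below the WT line on both sides of the 15 kb limit.

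Within the zone the level changed with distance from the centromere. In the innermost 5 kb it was 0.771 ± 0.0248 in rpd3Δ and 0.807 ± 0.0172 in WT (SD, n = 3 each). From 5 to 10 kb it was 0.761 ± 0.0251 in rpd3Δ and 0.798 ± 0.00693 in WT. The outermost band of the zone, 10 to 15 kb away, was the highest in both genotypes, at 0.858 ± 0.0131 in rpd3Δ and 0.946 ± 0.0251 in WT, and had the widest gap between them, a log2 difference of −0.14. In each of these bands the 3 rpd3Δ samples lay below the 3 WT samples. At the limit of the zone, the bins 14 to 15 kb away, just inside, had 0.869 ± 0.0105 in rpd3Δ and 0.996 ± 0.0439 in WT. The bins 15 to 16 kb away, just outside, had 0.719 ± 0.0665 in rpd3Δ and 0.781 ± 0.0104 in WT.

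The ratio of the inner 5 kb to the outer 5 kb was 0.879, 0.916 and 0.903 in the rpd3Δ samples and 0.844, 0.852 and 0.863 in the WT samples. The zone was thus flatter in rpd3Δ, with no overlap (log2 difference 0.08, exact permutation test, p = 0.1, the smallest possible). Outside the binding regions described below, the same ratio was 1.004 ± 0.0130 in rpd3Δ and 0.979 ± 0.0105 in WT, the groups overlapped and p was 0.2 in the exact permutation test.

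Over the centromere itself the mean signal was above that of the zone in both genotypes, carried by a part of the centromeres. Bins within 250 bp of the 16 centromere midpoints had a relative level of 1.41, 1.31 and 1.17 in rpd3Δ and 1.25, 1.58 and 1.15 in WT. The mean was above 1 in each sample, and the genotypes overlapped, with 1.298 ± 0.120 in rpd3Δ and 1.33 ± 0.227 in WT (SD, n = 3 each; exact permutation test, p = 1). The median over the 16 cores was 1.08, 1.11 and 0.980 in rpd3Δ and 0.963, 1.14 and 0.807 in WT, and 7 to 11 cores in rpd3Δ and 6 to 9 in WT were above 1. By the mean, the core exceeded the remainder of the zone in all 6 samples, by a factor of 1.65 ± 0.199 in rpd3Δ and 1.57 ± 0.246 in WT (exact permutation test, p = 0.8). With the median over the 16 cores, chosen as an alternative after seeing the data, the factor was 1.41, 1.40 and 1.21 in rpd3Δ and 1.14, 1.33 and 0.973 in WT, so WT sample 3 was below its zone. The rise was narrow: between 0.25 and 0.5 kb from the midpoint the level was 0.989 ± 0.0291 in rpd3Δ and 1.03 ± 0.0910 in WT, and between 0.5 and 1 kb it was 0.782 ± 0.0584 in rpd3Δ and 0.795 ± 0.0208 in WT.

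The 16 cores were far from alike. The centromere of chromosome VIII had the highest core in every sample, at 4.70, 3.72 and 2.69 in rpd3Δ and 4.43, 5.33 and 3.92 in WT. Chromosomes III and VII followed, with 2.17 ± 0.461 and 1.99 ± 0.189 in rpd3Δ and 2.37 ± 0.778 and 2.19 ± 0.426 in WT. The lowest core by its mean in rpd3Δ was that of chromosome IX, at 0.562 ± 0.169 in rpd3Δ and 0.596 ± 0.0935 in WT, while in WT that of chromosome I was lower still, at 0.701 ± 0.157 in rpd3Δ and 0.567 ± 0.111 in WT (SD, n = 3 each). Without chromosome VIII the core to zone ratio was 1.45 ± 0.118 in rpd3Δ and 1.32 ± 0.213 in WT. The core was above its own zone on 12, 12 and 14 chromosomes in the rpd3Δ samples and on 9, 14 and 9 in the WT samples.

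On chromosomes X and XIII the core values of the genotypes did not overlap. On chromosome X the core had 1.04, 0.891 and 0.792 in rpd3Δ and 0.524, 0.714 and 0.726 in WT. On chromosome XIII it had 1.09, 1.14 and 1.20 in rpd3Δ and 0.905, 0.946 and 0.651 in WT. In both, every rpd3Δ sample was above every WT sample. That is 2 of 16 cores (12.5%), beside 19.1% of 23983 stretches of 500 bp on all chromosomes whose genotypes did not overlap. Of these stretches, 8.98% had rpd3Δ below and 10.2% had rpd3Δ above, so the share of cores is close to the background. A core is only 10 bins, and no adjusted test was run on single cores.

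**Figure D2:**
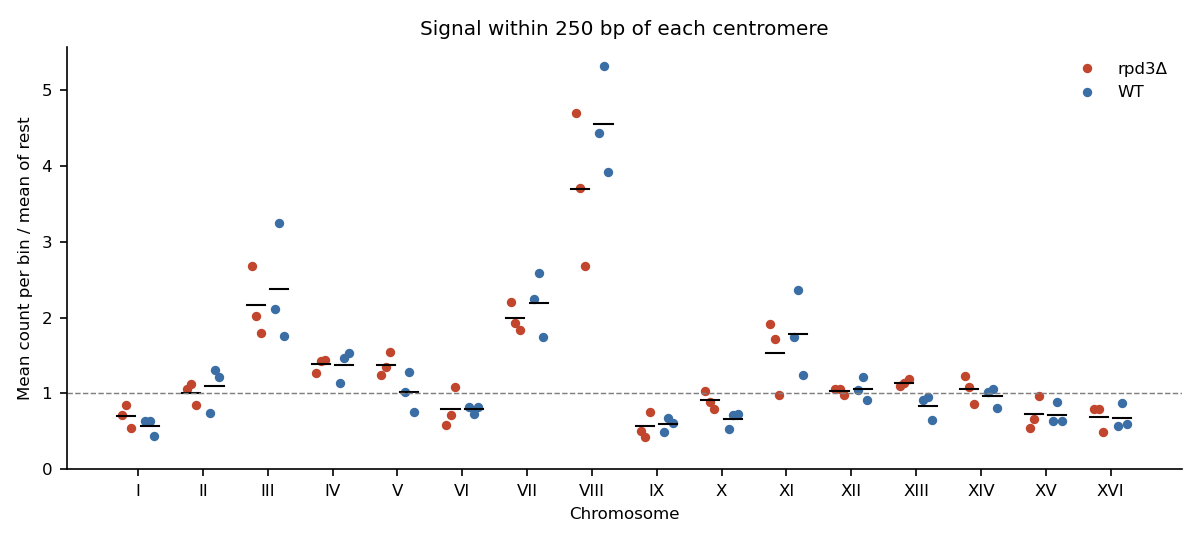
Mean count per bin within 250 bp of the centromere midpoint, divided by the mean of the rest of the chromosomes, for each chromosome; points are the 3 rpd3Δ samples (left of each pair) and the 3 WT samples (right), black bars are means. Chromosome VIII stands at 3.70 in rpd3Δ and 4.56 in WT, and most other cores lie between 0.5 and 2.5 with overlapping genotypes.

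Each centromere lies in an interval between 2 annotated genes, from 630 to 2541 bp long. Of these 16 intervals, 5 lie between convergent genes, 2 between divergent genes and 9 between genes that point the same way. They were tested with edgeR's quasi-likelihood test among all 6002 intergenic intervals, on counts scaled to a common library size. Of the 16, 0 passed the adjusted p threshold of 0.05 and 0 had an unadjusted p under 0.05, and DESeq2 called 0 of them. Over all intervals 2.27% were called, so a count of 0 among 16 does not set the centromere intervals apart. Their log2 fold changes, rpd3Δ over WT, were positive in 7 and negative in 9, from −0.31 to 0.31, with a median of −0.02, beside a median of −0.04 over all intervals.

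The largest positive change was that of the interval between TFC3, which encodes a subunit of the RNA polymerase III factor TFIIIC, and NUP60, which encodes a nuclear pore protein (chromosome I, 151167 to 152256). It had 6.69, 8.10 and 6.77 scaled counts per bin in rpd3Δ and 6.49, 6.09 and 4.74 in WT. The groups did not overlap but lay close (edgeR log2 fold change 0.31 with SE 0.17, adjusted p = 0.418). The largest negative change was that of the interval between RPL14B, which encodes a protein of the large ribosomal subunit and has a near-identical copy elsewhere, and OSH7, which encodes an oxysterol-binding protein homologue (chromosome VIII, 105092 to 106054). It had 38.4, 32.01 and 24.9 scaled counts per bin in rpd3Δ and 39.2, 45.6 and 33.5 in WT. It was the highest of the 16 in both genotypes, and the groups overlapped (edgeR log2 fold change −0.31 with SE 0.18, adjusted p = 0.444).

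Over the bodies of the 32 genes that flank the centromeres, the median relative level was 0.674 in rpd3Δ and 0.674 in WT. The highest was RPL14B, at 1.48 ± 0.170 in rpd3Δ and 1.39 ± 0.147 in WT, and the lowest was CIT3, a mitochondrial citrate synthase isoform, at 0.499 ± 0.0432 in rpd3Δ and 0.501 ± 0.0601 in WT (SD, n = 3 each). In 27 of the 32 the genotypes overlapped, and in 0 was every rpd3Δ sample above every WT sample. In the other 5, ECM15, IRC22, ERG26, CIT1 and PHO80, every rpd3Δ sample was below. Over 5972 protein-coding genes, 9.51% lay wholly below WT and 14% wholly above in the same measure (23.5% in either direction), so a few such genes among 32 are not far from the background. PHO80, the cyclin partner of the kinase Pho85 in phosphate signalling, had 0.535, 0.517 and 0.500 in rpd3Δ and 0.683, 0.624 and 0.688 in WT. ERG26, a sterol dehydrogenase of ergosterol synthesis, had 0.576, 0.531 and 0.537 in rpd3Δ and 0.663, 0.667 and 0.697 in WT. These are relative levels without a test for single genes.

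The zones of single chromosomes differed in level by 1.61 to 1.95 times between the highest and the lowest in the rpd3Δ samples and by 1.76 to 2.10 times in the WT samples. Chromosome I was at 1.03, 1.08 and 1.05 in rpd3Δ and at 1.17, 1.19 and 1.08 in WT. The sequence of its zone with the most signal, 156501 to 166500, includes Ty1 retrotransposon genes, where reads cannot be placed for certain. Their part in the level of this zone was not tested. Chromosome IX was the lowest in every sample, at 0.546, 0.587 and 0.649 in rpd3Δ and at 0.624, 0.569 and 0.614 in WT. Across the 16 chromosomes, the zone's level had a weak negative Spearman correlation with chromosome length, from −0.23 to −0.29 in rpd3Δ and −0.25 to −0.27 in WT, given as a description because all points of a sample share a library.

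**Figure D3:**
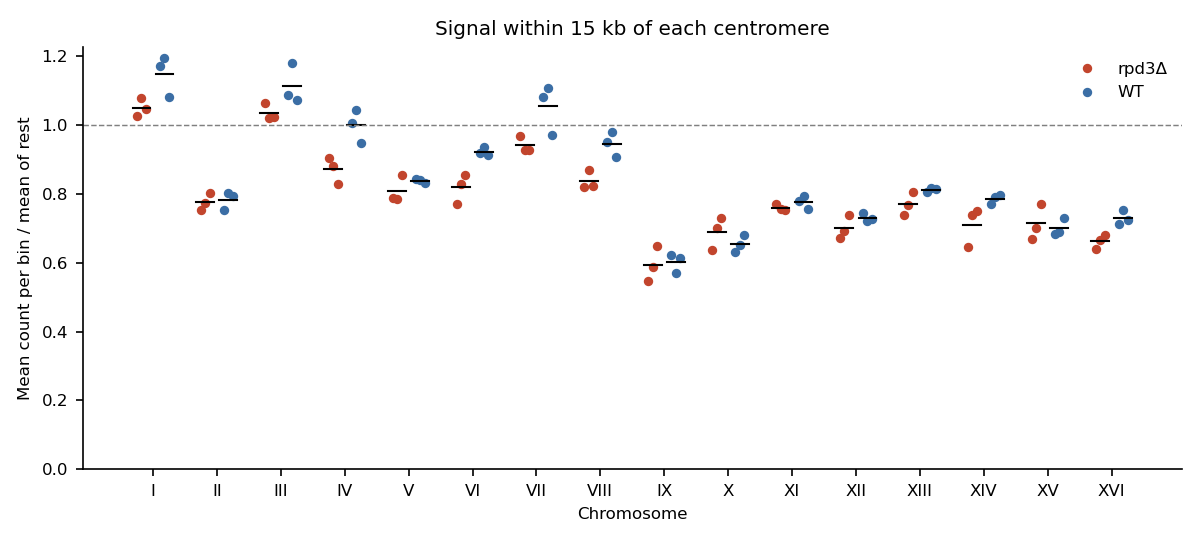
Mean count per bin of the 30 kb zone of each chromosome, divided by the mean of the rest of the chromosomes; points are the 3 rpd3Δ samples (left of each pair) and the 3 WT samples (right), black bars are means, and the dashed line marks the level of the rest. Chromosomes I and III lie above 1 in both genotypes, and chromosome IX is lowest, near 0.6.

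To ask which zones differed between rpd3Δ and WT, the summed counts of 30 kb windows were compared with edgeR's quasi-likelihood test, with the 16 zones among 385 windows that cover the chromosomes. At this window size, 51.9% of all 385 were called at an adjusted p under 0.05, 27.8% lower and 24.2% higher in rpd3Δ. Of the 16 zones, 9 were lower, on chromosomes I, III, IV, VI, VII, VIII, XIII, XIV and XVI, and 0 were higher. The median log2 fold change was −0.10 over the 16 zones and −0.00 over all windows. The scaled counts of 7 zones lay wholly below WT, beside 27.0% of all windows, and 0 lay wholly above, beside 25.7% (52.7% in either direction). Without WT sample 2, the count of zones called was 4. The changes were small: the largest was a log2 fold change of −0.21.

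That 9 of 16 zones fell and 0 rose was shared by their surroundings. Of the 31 neighbouring 30 kb windows tested, 17 were lower and 0 higher, with a median log2 fold change of −0.12. The missing window, left of the zone on chromosome IX, holds the deleted BAR1 gene and was not tested. On chromosomes XIII and XIV the zone was called and 0 of its 2 neighbours were. On chromosomes V and XV the zone was not called and both of its neighbours were lower. No test of the difference between a zone and its neighbours was made for single chromosomes.

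The zone of chromosome IV had 9.31, 8.93 and 8.34 scaled counts per bin in rpd3Δ and 10.3, 10.8 and 9.63 in WT. Every rpd3Δ sample was below every WT sample (edgeR log2 fold change −0.21 with SE 0.041, adjusted p = 0.000538). The zone of chromosome VIII had 8.44, 8.80 and 8.30 in rpd3Δ and 9.76, 10.1 and 9.22 in WT, again without overlap (edgeR log2 fold change −0.19 with SE 0.036, adjusted p = 0.000393). The zone of chromosome VI had 7.93, 8.40 and 8.63 in rpd3Δ and 9.43, 9.64 and 9.27 in WT (edgeR log2 fold change −0.19 with SE 0.035, adjusted p = 0.000342). These 3 and the zone of chromosome VII (edgeR log2 fold change −0.18 with SE 0.043, adjusted p = 0.00253) kept the call in every alternative tried. On chromosome VII the groups overlapped, with 9.96, 9.39 and 9.34 in rpd3Δ and 11.1, 11.4 and 9.87 in WT.

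The other 5 called zones were less firm. Chromosomes XIV, XVI and I had log2 fold changes of −0.16, −0.15 and −0.14, and each lost its call when WT sample 2 was left out. Chromosome III, at −0.12, lost it without WT sample 2 or rpd3Δ sample 2, and with WT samples 1 and 2 summed. Chromosome XIII, at −0.09, sat at the threshold (edgeR adjusted p = 0.04998) and lost the call in 5 of the 6 fits that left out a sample. It also lost the call with WT samples 1 and 2 summed and with either other scaling. The edgeR adjusted p was 0.0527 with DESeq2 size factors and 0.173 with total counts outside the rDNA. Of the zones not called, chromosome X had the highest fold change: it had 6.55, 7.09 and 7.37 scaled counts per bin in rpd3Δ and 6.49, 6.71 and 6.90 in WT, and the groups overlapped (edgeR log2 fold change 0.06 with SE 0.053, adjusted p = 0.33). Without rpd3Δ sample 1 it was called higher, at 0.11. Without rpd3Δ sample 3, the zones of chromosomes V and XII were called lower, at −0.09 and −0.10. The remaining 6 (II, V, IX, XI, XII and XV) lay between −0.07 and 0.01.

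**Figure D4:**
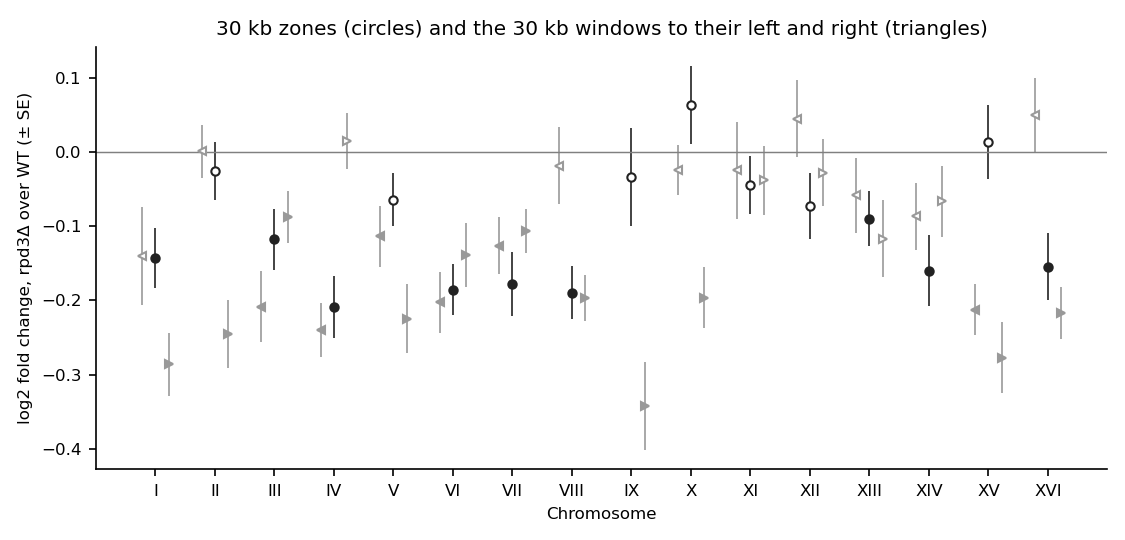
Log2 fold change, rpd3Δ over WT, with its standard error for the 30 kb zone of each chromosome (circles) and for the 30 kb windows to its left and right (grey triangles); filled symbols have an edgeR adjusted p under 0.05. The zones run from −0.21 (IV) to 0.06 (X) and the neighbours from −0.34 to 0.05, and all filled symbols lie below 0.

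Smaller windows placed the changes within the zones. Of the 96 windows of 5 kb, 16 were lower and 1 was higher in rpd3Δ, which is 17.7% called, beside 25.0% of all 2386 windows of that size (13.3% lower and 11.7% higher). The calls were spread over distance, with 4 lower in the 32 windows at 0 to 5 kb, 5 in the 32 at 5 to 10 kb and 7 in the 32 at 10 to 15 kb. Without WT sample 1 the count of windows called was 11, and without WT sample 2 it was 10. The log2 fold change was negative in 69 of the 96 (71.9%), with a median of −0.09, beside 49.0% negative and a median of 0.00 over all windows of that size.

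The largest fall was at the left edge of the zone of chromosome IV (434701 to 439700), a window with RPT2, which encodes a proteasome regulatory ATPase. It had 13.4, 11.01 and 10.1 scaled counts per bin in rpd3Δ and 18.1, 17.7 and 13.0 in WT. The highest rpd3Δ sample was above the lowest WT sample (edgeR log2 fold change −0.50 with SE 0.10, adjusted p = 0.00108). The second largest was 5 to 10 kb right of the centromere of chromosome I (156501 to 161500), over RFA1, which encodes the largest subunit of the single-stranded DNA binding protein RPA, SEN34, a subunit of the tRNA splicing endonuclease, and YAR009C, a Ty1 retrotransposon gene. It had 15.9999, 14.95 and 14.4 in rpd3Δ and 21.4, 22.3 and 18.8 in WT, with no overlap (edgeR log2 fold change −0.46 with SE 0.088, adjusted p = 0.000521). Ty1 occurs in many near-identical copies, so reads there cannot be placed for certain. Of the 6 windows on chromosome I, this one was the only one called, and the median of all 6 was −0.03.

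The window that begins at the centromere of chromosome XIV (628801 to 633800), over CIT1, which encodes mitochondrial citrate synthase, had 7.57, 7.81 and 8.45 scaled counts per bin in rpd3Δ and 10.03, 10.6 and 10.4 in WT. The genotypes were well apart (edgeR log2 fold change −0.39 with SE 0.067, adjusted p = 0.000215). It is the called window with the smallest adjusted p in the zone. On chromosome VIII, the 5 kb right of the centromere (105601 to 110600), over OSH7, QCR10, LEU5 and TCD1, had 7.39, 8.50 and 7.26 in rpd3Δ and 9.71, 9.31 and 8.89 in WT (edgeR log2 fold change −0.27 with SE 0.074, adjusted p = 0.00916).

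The window that rose was 5 to 10 kb right of the centromere of chromosome X (441301 to 446300), over MRX12, SAG1 and APL1. SAG1 encodes α-agglutinin, the cell adhesion protein of α-mating-type cells. The window had 7.89, 8.12 and 7.85 scaled counts per bin in rpd3Δ and 6.40, 6.52 and 6.14 in WT. Both groups were tight and did not overlap (edgeR log2 fold change 0.32 with SE 0.079, adjusted p = 0.0043).

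The other named windows of 5 kb that fell lie on chromosome XVI with HAL1, ICL2 and the meiotic cohesin gene REC8 (−0.35), chromosome IV with SOK1, TRP1 and GAL3 (−0.31), chromosome III with DFP3 and SAT4 (−0.31), chromosome VIII with TIM10, STP2 and ERG11 (−0.30), chromosome II with COQ1, GPI18, RCR1 and UGA2 (−0.29), and chromosome VI over YFL002W-B and YFL002W-A, which are Ty genes (−0.26). Of the 6 windows on chromosome VI, the one over the Ty genes was the only one called, and the median of all 6 was −0.18. Reads over Ty copies cannot be placed for certain, and their part in the values of this zone was not tested. Of the 11 windows of 5 kb named here, 8 kept the call in every alternative. The window of chromosome XVI lost it without WT sample 2, the one beside the centromere of chromosome VIII without WT sample 1, and the one of chromosome II without WT sample 1, WT sample 2 or rpd3Δ sample 2.

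**Figure D5:**
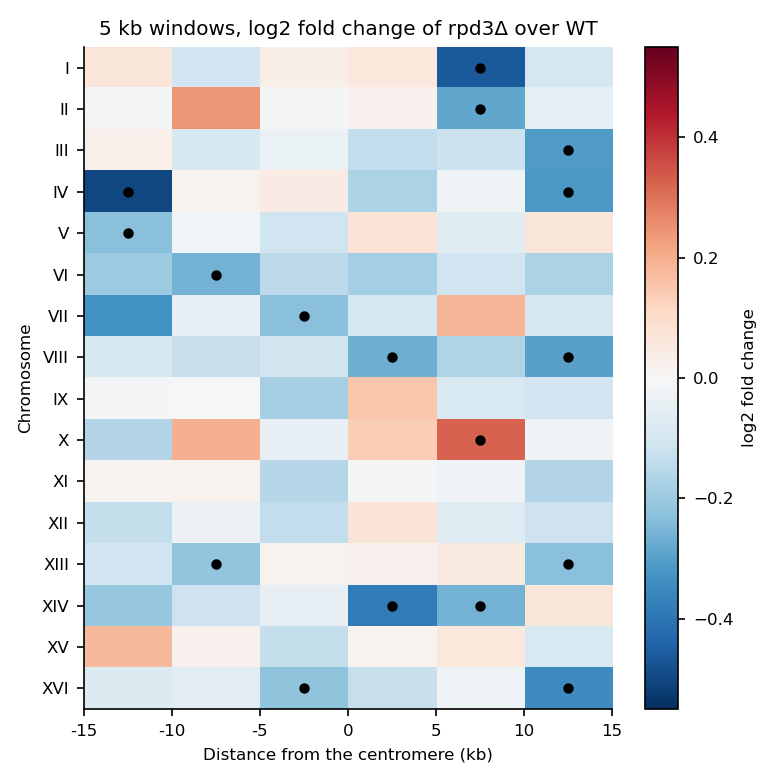
Log2 fold change of rpd3Δ over WT in the 6 windows of 5 kb in the zone of each chromosome, by distance from the centromere in kb (negative is left); blue is lower and red is higher in rpd3Δ, and black dots mark an edgeR adjusted p under 0.05. Of 17 dots, 16 are on blue cells, spread over 11 chromosomes, and 1 is on the red cell of chromosome X.

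At 1 kb, 18 of 480 windows were called, 14 lower and 4 higher, which is 3.75% beside 6.48% of all 11986 windows (3.35% lower and 3.13% higher). The count called was 7 without WT sample 1, 2 without WT sample 2 and 4 without rpd3Δ sample 2. Of the 14 lower, 10 lie 10 to 15 kb from the centromere. Of the 18 called, 2 kept the call in every alternative. One lies mostly between YEL008W and MIT1, which encodes a regulator of pseudohyphal growth, and reaches into MIT1, on chromosome V (141001 to 142000), with 10.7, 7.46 and 9.68 scaled counts per bin in rpd3Δ and 14.8, 15.4 and 13.5 in WT (edgeR log2 fold change −0.66 with SE 0.13, adjusted p = 0.00114). The other lies mostly upstream of CIT1 and reaches into the gene, on chromosome XIV (630801 to 631800), with 9.62, 9.74 and 9.34 in rpd3Δ and 14.6, 15.7 and 13.1 in WT (edgeR log2 fold change −0.60 with SE 0.13, adjusted p = 0.00196). In both, the genotypes did not overlap.

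The 4 windows of 1 kb that rose lie mostly over gene bodies. One is in UTP20, a gene of ribosomal RNA processing, on chromosome II, with 7.02, 6.63 and 7.72 in rpd3Δ and 3.82, 4.52 and 5.34 in WT (edgeR log2 fold change 0.65 with SE 0.19, adjusted p = 0.0239). A neighbouring pair lies over SAG1, at 0.60 and 0.53, and one over BUD3 and YCL012C on chromosome III, at 0.53. Each lost its call in at least 4 of the 6 fits that left out a sample.

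To find binding regions, the 6 samples were added together, and a region was called where signal smoothed over 500 bp was at least 2 times the local median over 20 kb for 200 bp or more. The counts were not scaled before this sum, so WT sample 2, the deepest outside the rDNA, weighed most. The zone holds 42 of 906 such regions, covering 31.7 kb, or 6.50% of its bins, beside 5.88% of the bins of the rest. Their median peak was 2.66 times the local signal, beside 2.87 over all regions, and 5 lie within 1 kb of a centromere. They took 20.2%, 17.1% and 15.5% of the zone's signal in rpd3Δ and 20.5%, 21.4% and 17.5% in WT. The groups overlapped (17.6% ± 2.37 in rpd3Δ and 19.8% ± 2.06 in WT, SD, n = 3 each; exact permutation test, p = 0.2).

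Of the 42 regions, 1 was lower and 0 were higher, beside 5.63% called over all 906 (4.30% lower and 1.32% higher). The one that fell lies over ICL2, which encodes 2-methylisocitrate lyase, 12 kb right of the centromere of chromosome XVI (567651 to 568300). It had 23.1, 14.3 and 14.9 scaled counts per bin in rpd3Δ and 31.2, 38.1 and 23.7 in WT, which is below by a narrow margin (edgeR log2 fold change −0.83 with SE 0.22, adjusted p = 0.0371). The call was lost without WT sample 1, WT sample 2 or rpd3Δ sample 2. The fold change was negative in 32 of the 42 (76.2%), with a median of −0.17, beside 65.0% negative and a median of −0.10 over all regions.

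The highest region of the zone by its peak, 10.1 times the local signal, lies at SEN34 on chromosome I (159351 to 160850). The region spans part of SEN34, the sequence beside it and part of the Ty1 gene YAR009C, where reads cannot be placed for certain. It had 38.2, 31.3 and 29.9 scaled counts per bin in rpd3Δ and 54.0, 55.5 and 43.2 in WT, without overlap, but just short of the adjusted threshold (edgeR log2 fold change −0.62 with SE 0.18, adjusted p = 0.0513). The next, also at 10.1 times, lies at BRP1 in the upstream region of the plasma membrane proton pump gene PMA1 on chromosome VII (483001 to 485450). It had 45.8, 34.3 and 32.9 in rpd3Δ and 50.3, 54.1 and 40.8 in WT, and the groups overlapped (edgeR log2 fold change −0.36 with SE 0.18, adjusted p = 0.263). A region at the outer edge of the zone of chromosome IV, next to YNCD0005C (434401 to 435750), peaked at 7.83 times and had 31.2, 24.3 and 19.9 in rpd3Δ and 47.8, 46.7 and 30.2 in WT (edgeR log2 fold change −0.73 with SE 0.21, adjusted p = 0.0538). It overlaps in the highest rpd3Δ and the lowest WT sample.

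The region of the centromere of chromosome VIII, between RPL14B and OSH7 (104701 to 106250), peaked at 6.28 times the local signal. It had 29.9, 26.0 and 23.1 scaled counts per bin in rpd3Δ and 31.1, 34.4 and 25.6 in WT, with overlap (edgeR log2 fold change −0.21 with SE 0.18, adjusted p = 0.57). The region at the end of TRP1 (chromosome IV, 462001 to 463100), next to which the replication origin ARS1 is known to lie, peaked at 5.78 times. It had 29.2, 21.7 and 18.6 in rpd3Δ and 34.3, 37.4 and 25.8 in WT (edgeR log2 fold change −0.49 with SE 0.20, adjusted p = 0.153). The last 3 of the highest 8 lie at MRPL32 (5.12 times), YPI1 (4.64 times) and YAR010C (4.51 times, Ty1 sequence), with log2 fold changes of −0.28, −0.35 and −0.22 and edgeR adjusted p values of 0.244 to 0.492. The log2 fold change was negative in each of the highest 8 regions, beside 65.0% of all 906 regions, and none of these 8 passed. The peaks that rank these regions come from the sum of the same 6 samples, so their signs are a description and not a separate test.

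Promoters, taken as the 500 bp upstream of each start codon, gave 2 calls among the 256 of 257 in the zone that passed the minimum of 10 counts, or 0.781%, beside 1.37% of all 5968 promoters (1.09% lower and 0.285% higher). The promoter of CIT1 had 9.24, 11.5 and 10.6 scaled counts per bin in rpd3Δ and 17.7, 18.9 and 14.4 in WT, without overlap (edgeR log2 fold change −0.71 with SE 0.18, adjusted p = 0.0181). The promoter of OSH6, which encodes a lipid transfer protein of the oxysterol-binding family, had 16.9, 13.0 and 14.4 in rpd3Δ and 10.3, 7.78 and 9.28 in WT, all higher in rpd3Δ (edgeR log2 fold change 0.71 with SE 0.18, adjusted p = 0.0198). With DESeq2, 0 of the zone's promoters were called.

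Among 270 intervals between genes in the zone, 4 were lower and 2 were higher, which is 2.22% beside 2.27% of all 6002 (1.58% lower and 0.683% higher). Those that fell lie between CIT1 and SUF10 (−0.65), SEN34 and the Ty1 gene YAR009C (−0.66), YEL008W and MIT1 (−0.66), and YNCD0005C and YDL007C-A (−0.68). Between CIT1 and SUF10, a proline tRNA gene (chromosome XIV, 631062 to 631845), the signal was 9.84, 10.2 and 9.90 scaled counts per bin in rpd3Δ and 15.7, 16.6 and 14.6 in WT. The rpd3Δ samples were nearly alike and far below (edgeR log2 fold change −0.65 with SE 0.16, adjusted p = 0.0152). Those that rose both lie on chromosome XI. Between PAP1, which encodes poly(A) polymerase, and OSH6 the signal was 17.7, 13.4 and 15.04 in rpd3Δ and 10.3, 7.71 and 9.32 in WT (edgeR log2 fold change 0.77 with SE 0.18, adjusted p = 0.0152). Between MRT4, a ribosome assembly gene, and LAC1, a ceramide synthase gene, it was 13.6, 14.5 and 12.2 in rpd3Δ and 8.94, 8.31 and 6.90 in WT (edgeR log2 fold change 0.73 with SE 0.21, adjusted p = 0.0448). The promoter windows and these intervals overlap each other, so CIT1 and OSH6 were not counted independently, and each of the 2 promoters and 6 intervals lost its call when WT sample 1 or WT sample 2 was left out.

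The low level of the zone was found in each kind of sequence. Gene bodies make up 72.0% of its bins and had a relative level of 0.720 ± 0.0454 in rpd3Δ and 0.750 ± 0.0114 in WT (SD, n = 3 each). The sequence between genes was higher, at 0.995 ± 0.0458 in rpd3Δ and 1.11 ± 0.0760 in WT. Set against the same kind of sequence in the rest of the chromosomes, gene bodies stood at 0.790 ± 0.0248 in rpd3Δ and 0.842 ± 0.0133 in WT, and the sequence between genes at 0.781 ± 0.0187 in rpd3Δ and 0.829 ± 0.0147 in WT. Divergent intervals, which hold 2 promoters, were lowest by this ratio, at 0.711 ± 0.0228 in rpd3Δ and 0.747 ± 0.00813 in WT. Convergent intervals stood at 0.772 ± 0.0491 in rpd3Δ and 0.833 ± 0.0214 in WT, and tandem intervals at 0.827 ± 0.0116 in rpd3Δ and 0.888 ± 0.0278 in WT. Each of these ratios was under 1 in all 6 samples (exact sign-flip permutation test, p = 0.03125 each, the smallest possible). In each the 3 rpd3Δ samples lay below the 3 WT samples. For convergent intervals the margin was minimal, with 0.81375 in rpd3Δ sample 3 and 0.81386 in WT sample 3. The relative levels before this division overlapped between genotypes in gene bodies and between genes (exact permutation test, p = 0.3 and 0.2).

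The 19 tRNA genes of the zone, with 50 bp on each side, differed from this pattern in their order. Transcribed by RNA polymerase III, tRNA genes are known sites of cohesin loading and of high signal in many precipitation experiments. Their mean relative level was 1.23 ± 0.0254 in rpd3Δ and 1.22 ± 0.0808 in WT (SD, n = 3 each), above the zone around them. Single genes ranged widely, from 0.60 to 2.43 in rpd3Δ and from 0.58 to 2.96 in WT by their means. How multiply mapping reads were handled is not known, and their part in these values was not tested. Set against the 231 tRNA genes of the rest, the 19 stood at 0.799, 0.838 and 0.868 in rpd3Δ and at 0.803, 0.804 and 0.750 in WT. All 6 ratios were under 1, and the genotypes overlapped (exact permutation test, p = 0.3). The highest was YNCH0003C on chromosome VIII, at 3.003, 2.64 and 1.65 in rpd3Δ and 3.26, 3.47 and 2.16 in WT. Next was YNCE0010W on chromosome V in rpd3Δ, at 1.65, 2.23 and 2.32 in rpd3Δ and 1.60, 1.84 and 1.25 in WT. The lowest in rpd3Δ was SUP51 on chromosome X, at 0.764, 0.546 and 0.492 in rpd3Δ and 0.540, 0.839 and 0.584 in WT.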

How the data were processed

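The authors deposited, for each sample, whole-number read counts per 50 bp bin on 16 nuclear chromosomes, with no normalization; the submitters' processing notes name Bowtie2, SAMtools, bedtools and the R64 build, without versions. How duplicates and multiply mapping reads were handled is not given in the sources used here. Neighbouring bins share reads, so counts exceed reads. Centromere positions come from the rule that defines the zone and are good to about 50 bp. Gene names and positions come from the RefSeq R64 gene table.

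Bins were summed over windows, and the quasi-likelihood test of edgeR 4.0.16 (R 4.3.3) was fitted to all 6 samples with no covariate. Library sizes came from TMM on 1191 complete 10 kb bins, which exclude the rDNA (chromosome XII, 449786 to 491469) and the deleted genes. Windows had to average at least 10 counts, and p-values were adjusted (Benjamini-Hochberg) over all windows of a kind on all chromosomes. Scaled counts are counts times the library scale, per bin. Standard errors follow from the fold change and the F statistic. Single values per sample were compared by exact permutation tests, two-sided. DESeq2 1.42.0, other scalings, no filter, a replicate block, WT samples 1 and 2 summed, and leaving out each sample were alternatives. Tables and figures were made with Python 3.11.15, pandas 2.3.3, numpy 2.4.6, scipy 1.17.1 and matplotlib 3.10.9.

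Every pair of same-group samples differed beyond sampling noise: the corrected chi-square per degree of freedom ran from 1.34 to 2.59 in rpd3Δ and from 1.23 to 2.43 in WT, so each sample was counted once. Items named are all 16 zones, the centromere-flanking genes and intervals, the 8 regions with the highest peak, and up to 10 rising and 10 falling windows, regions, promoters and intervals past the threshold. The single tRNA genes, flanking genes and cores described were chosen after their values were seen. The zone, lists and rules were chosen with earlier results of these data known.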

Additional observations from a re-analysis of the deposited data

How the results depend on the processing

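Set against the sequence 15 to 45 kb away instead of the rest of the chromosomes, an alternative chosen after seeing the data, the zone was higher over the 6 samples (log2 ratio 0.0303, against −0.28) and the genotype difference changed sign (0.0239, against −0.09). Leaving out 1 sample gave log2 ratios over samples of −0.30 to −0.26, with an exact permutation p of 0.0625, the smallest that 5 samples allow. The inner to outer difference of 0.08 was 0.0224 with medians of bins and 0.0365 outside binding regions. The 9 zones called became 4 to 11 when 1 sample was left out (4 without WT sample 2). The 17 windows of 5 kb became 11 with WT samples 1 and 2 summed and 10 to 19 with 1 sample left out (11 without WT sample 1, 10 without WT sample 2). The 18 windows of 1 kb became 11 with DESeq2 and 2 to 27 with 1 sample left out (7 without WT sample 1, 2 without WT sample 2, 4 without rpd3Δ sample 2). The 1 binding region became 3 with total counts outside the rDNA, 3 with DESeq2, 0 with WT samples 1 and 2 summed and 0 to 8 with 1 sample left out (8 without rpd3Δ sample 1, 5 without WT sample 3, 0 without WT sample 1, WT sample 2 or rpd3Δ sample 2). The 2 promoters became 0 with DESeq2 and 0 to 9 with 1 sample left out, and the 6 intervals became 0 to 12. The causes of these shifts were not tested. For the windows, regions, promoters and intervals named, 722 of the values under an alternative stayed on the same side of the threshold. Of the others, 101 no longer passed, 19 newly passed and 8 moved. These counts include zones, regions and centromere intervals that were not called in the main fit. Among such items the sign could change: the zone of chromosome XV went from 0.01 to −0.03 without rpd3Δ sample 3. Same-numbered samples did not deviate together throughout (correlations of 0.20, −0.12 and 0.36 for numbers 1, 2 and 3 over 2386 windows of 5 kb, each sample matching best with its own number for number 3 only), so the numbers were not taken to pair the samples; with the replicate block, 31 windows of 1 kb, 9 regions, 6 promoters and 10 intervals were called. With a median of 5 to 10 counts per bin, single promoters and intervals had standard errors near 0.21 to 0.22 on the log2 scale.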
